A study of Mus musculus with 6 samples.

Results

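The Hsp70 and Hsp110 family is described here through 10 mouse genes: Hspa1a, Hspa1b, Hspa2, Hspa8, Hspa9, Hspa13, Hspa14, Hspa4, Hspa4l and Hsph1. They were chosen by gene symbol from a fixed list, matched to the numeric gene identifiers of the deposited tables, and all 10 were found among the 18753 genes listed in at least 1 library. Their identifiers in the files are 193740 (Hspa1a), 15511 (Hspa1b), 15512 (Hspa2), 15481 (Hspa8), 15526 (Hspa9), 110920 (Hspa13), 50497 (Hspa14), 15525 (Hspa4), 18415 (Hspa4l) and 15505 (Hsph1). Related genes outside that list, Hspa5 and Hspa1l among them, are given as neighbours of the family only. The members and the lists of related genes were chosen with earlier results of these data known.

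The RNA came from cultured oligodendrocyte progenitor cells (OPCs), proliferating glial cells from which the myelin-forming cells of the brain develop. They were taken from the cortex of wild-type C57BL/6 mouse pups on postnatal days 0 to 2 (the age label reads day 1), captured with magnetic beads against CD140a (PDGFRα, a surface receptor of OPCs) and expanded for 3 days. The vehicle group is 3 samples kept with 0.25% DMSO, and the hemin group is 3 samples kept with 50 µM hemin, a heme with its iron in the ferric state, both for 12 h. No DMSO content is given for the hemin samples, so whether the groups also differ in DMSO is not known. The title of the series names ferroptosis, an iron-dependent form of cell death, and bleeding in the brain. The labels do not say how many pups were pooled or that the replicates were separate cultures, so p-values here speak only to the scatter of these 6 samples, part of which could be technical.

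Hsp70 proteins bind short stretches of unfolded protein and let go of them in a cycle driven by ATP. J-domain proteins start the cycle by bringing in clients and stimulating ATP hydrolysis, and nucleotide exchange factors, the Hsp110 proteins among them, end it by removing ADP. Cells keep a constitutive Hsp70 at all times and add inducible Hsp70 under stress that damages proteins, through heat shock factor 1 (HSF1) bound to heat shock elements in the promoters of its target genes.

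Levels are in FPKM, the usual read density scaled by transcript length and by library size, so that genes can be set side by side. Changes are log2 fold changes of hemin against vehicle from edgeR's quasi-likelihood test on the expected counts, with standard errors derived from its statistic. A gene counts as called at an adjusted p below 0.05. Of the 10 members, 8 were called higher with hemin and 0 lower, and all 10 passed the filter on low counts. Among all 12783 genes tested, 31.9% were called in either direction, 16.2% higher and 15.7% lower. The 3 hemin libraries lay entirely above the 3 vehicle libraries in FPKM for the same 8 members, and for 21.5% of all genes tested. The median log2 fold change was 0.97 over the 10 members and 0.00 over all genes tested.

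**Figure D1:**
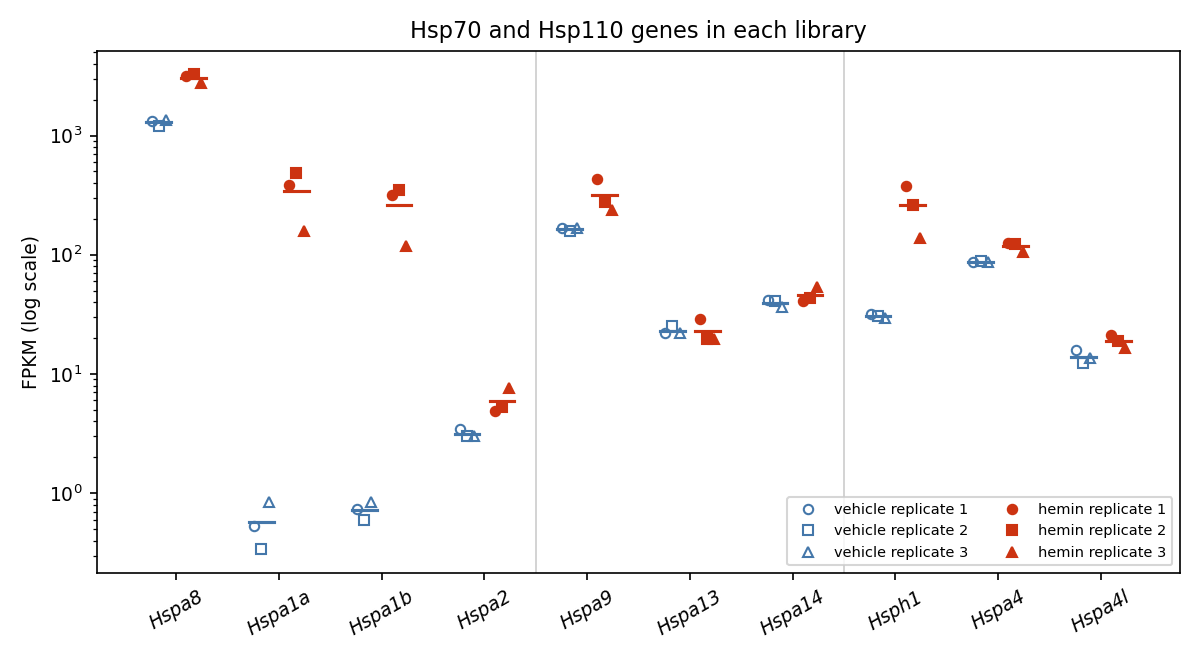
FPKM on a log scale of the 10 members in each of the 6 libraries. Open symbols are vehicle and filled symbols hemin, with the mean of each group as a bar. Grey lines divide the inducible and constitutive Hsp70, the mitochondrial, microsomal and ribosome-associated Hsp70, and the Hsp110 genes. Hspa1a and Hspa1b lie below 1 FPKM in every vehicle library and above 100 FPKM in every hemin library, whereas the groups overlap for Hspa13 and Hspa14.

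The promoter windows of the members that moved most are shown first, because heat shock elements are the sites at which HSF1 is known to bind. Each window is the 250 bases before an annotated start of transcription in RefSeq, build GRCm38.p6, on the minus strand and written 5′ to 3′ in the direction of transcription. Hspa1a lies on chr17:34972157-34972406, Hspa1b on chr17:34959239-34959488, Hsph1 (the more upstream of its 2 starts) on chr5:149636337-149636586, and Hspa4, shown as an Hsp110 gene with no match, on chr11:53300480-53300729. Capitals mark the matches to the element described after the sequences.
Hspa1a: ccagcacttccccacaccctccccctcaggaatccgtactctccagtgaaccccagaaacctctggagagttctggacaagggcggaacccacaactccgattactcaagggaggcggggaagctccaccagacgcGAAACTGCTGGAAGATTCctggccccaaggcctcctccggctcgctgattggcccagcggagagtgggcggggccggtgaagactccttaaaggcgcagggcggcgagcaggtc
Hspa1b: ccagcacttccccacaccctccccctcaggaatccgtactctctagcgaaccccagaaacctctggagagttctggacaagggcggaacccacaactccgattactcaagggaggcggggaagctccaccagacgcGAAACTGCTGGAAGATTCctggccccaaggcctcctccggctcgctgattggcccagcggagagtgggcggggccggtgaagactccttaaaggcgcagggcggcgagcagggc
Hsph1: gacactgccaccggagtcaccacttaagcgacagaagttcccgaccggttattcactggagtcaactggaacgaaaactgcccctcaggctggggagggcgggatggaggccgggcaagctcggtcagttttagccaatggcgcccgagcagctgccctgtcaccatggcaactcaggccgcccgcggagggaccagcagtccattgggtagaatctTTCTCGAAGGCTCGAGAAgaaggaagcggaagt
Hspa4: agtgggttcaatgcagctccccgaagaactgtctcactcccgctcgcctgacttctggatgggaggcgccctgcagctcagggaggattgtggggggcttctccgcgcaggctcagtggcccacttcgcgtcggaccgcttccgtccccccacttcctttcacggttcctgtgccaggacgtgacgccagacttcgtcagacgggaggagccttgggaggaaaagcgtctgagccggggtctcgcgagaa

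A heat shock element was searched for on both strands as 3 alternating units GAA and TTC, starting with either, each 2 bases from the next. RefSeq windows matched 7 of the 10 members, all but Hspa8, Hspa9 and Hspa13. None of the 7 held the element without a mismatch, which 0.466% of all 32851 promoter windows in the table did. With up to 1 mismatch, Hspa1a, Hspa1b and Hsph1 each held 2 overlapping matches, against 6.08% of all windows with at least 1. In each of these genes the overlapping matches made up a run of 18 bases with 4 units and 1 mismatch, a form that was chosen after the shorter matches were seen and that 0.247% of all windows held. The run lies 114 to 97 bases before the start in both Hspa1a and Hspa1b. In Hsph1 it lies 33 to 16 bases before the more upstream start and 54 to 37 bases before the other. Hspa2, Hspa4, Hspa4l and Hspa14 had no match with up to 1 mismatch in their windows. The windows of Hspa1a and Hspa1b were identical at 247 of 250 positions (98.8%), so they amount to 1 sequence rather than independent cases. A further motif chosen after the data were seen, the antioxidant response element TGACNNNGC, occurred 2 times in the Hsph1 window, in none of the other 6 member windows and in 10.2% of all windows. A match is a description of letters and shows neither binding nor its absence.

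Inducible Hsp70, encoded by the near-identical neighbours Hspa1a and Hspa1b, rose from under 1 FPKM to more than 100 FPKM. Hspa1a stood at 0.53, 0.34 and 0.84 FPKM in vehicle replicates 1 to 3 and at 388, 485 and 159.6 FPKM in hemin replicates 1 to 3. These levels rest on 13.0, 8.42 and 21.0 expected counts with vehicle and on 9682, 11883 and 3878 with hemin. The groups did not overlap, and hemin replicate 3 held less than either other hemin library. Hspa1a rose 629-fold (95% interval 238 to 1662), from 0.57 ± 0.252 to 344 ± 167 FPKM (SD, n = 3 per group; log2 fold change 9.30 ± 0.60, edgeR quasi-likelihood test with Benjamini-Hochberg adjustment, adjusted p = 0.0002). In limma on log2(FPKM + 1), where the pseudocount understates the change of a gene this low with vehicle, its log2 fold change was 7.65 (adjusted p = 4.41e-05), and after quantile normalization it was 7.49 (adjusted p = 4.91e-05).

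Hspa1b showed the same pattern library by library. Because 62.3% of its 50-base windows also occur in Hspa1a, it is not an independent case. It stood at 0.73, 0.59 and 0.84 FPKM with vehicle, from 18, 14.7 and 21.0 expected counts. With hemin it stood at 316, 350.4 and 119 FPKM, from 7929, 8624 and 2899 expected counts. The order of the 3 hemin libraries was that of Hspa1a, with replicate 2 highest and replicate 3 lowest. Hspa1b rose 375-fold (95% interval 152 to 924; log2 fold change 8.55 ± 0.56, edgeR adjusted p = 0.0002). Its log2 fold change was 7.11 in limma on log2(FPKM + 1) and 6.99 after quantile normalization (adjusted p = 5.24e-05 and 6.17e-05). Among all genes tested, Hspa1a had the third greatest log2 fold change and Hspa1b the fifth.

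How the reads were divided between the 2 copies is uncertain. In GENCODE vM21 transcripts, 66.3% of the 50-base windows of Hspa1a and 62.3% of those of Hspa1b also occur in a transcript of another gene, most of them in the other copy. Hspa1a took 36.4% to 50.0% of the pair's expected counts in the vehicle libraries and 55.0% to 57.9% in the hemin libraries. The summed pair does not depend on that division. It stood at 1.29 ± 0.376 FPKM with vehicle and 606 ± 291 FPKM with hemin. Its log2 fold change was 8.93 ± 0.56 (edgeR adjusted p = 0.000202). In that fit, 6 of the 8 other members were called higher.

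Constitutive cytosolic Hsp70, Hspa8, was the most abundant member in every library. It measured 1319, 1193 and 1351 FPKM in the vehicle libraries and 3177, 3252 and 2752 FPKM in the hemin libraries. Every hemin library lay above every vehicle library, and within each group the highest and lowest library were close. Hspa8 rose 2.47-fold (95% interval 2.06 to 2.95), from 1288 ± 83.4 to 3060.3 ± 269 FPKM (log2 fold change 1.30 ± 0.11, edgeR adjusted p = 0.000446). After quantile normalization, which gives all libraries the same distribution of values, its log2 fold change was 0.75 (limma adjusted p = 0.0171). Of the 50-base windows of its transcript, 74.8% occur in transcripts of 13 other genes, 12 of them processed pseudogenes, so the Hspa8 value can hold or lack reads of such copies.

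Hspa2, the Hsp70 best known from male germ cells, was the lowest cytosolic member with hemin. It measured 3.44, 3.02 and 2.99 FPKM in the vehicle libraries and 4.86, 5.24 and 7.64 FPKM in the hemin libraries. Here hemin replicate 3 was the highest of the group, opposite to its place for Hspa1a, Hspa1b and Hspa8. Hspa2 rose 1.93-fold (95% interval 1.39 to 2.69; log2 fold change 0.95 ± 0.20, edgeR adjusted p = 0.0117). None of its 50-base windows occurs in a transcript of another gene.

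Among the mitochondrial, microsomal and ribosome-associated Hsp70 members, the mitochondrial Hspa9 rose and the other 2 were not called. Hspa9 (mortalin), which draws imported proteins into the mitochondrial matrix and serves iron-sulfur cluster assembly, stood at 166, 159 and 169 FPKM with vehicle. With hemin it stood at 429.8, 278 and 236 FPKM, and hemin replicate 1 stood well above the other 2. The groups did not overlap. Hspa9 rose 2.00-fold (95% interval 1.38 to 2.89), from 165 ± 5.23 to 315 ± 102 FPKM (log2 fold change 1.00 ± 0.23, edgeR adjusted p = 0.0147). Without hemin replicate 1 its log2 fold change was 0.67 (edgeR adjusted p = 0.00407). The call held in all 15 alternatives, in some of them narrowly. The edgeR adjusted p was 0.0466 without vehicle replicate 1 and 0.049 without vehicle replicate 2. After quantile normalization the limma adjusted p was 0.0489.

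Hspa13, a membrane-associated Hsp70 of the microsomal fraction that lacks the substrate-binding domain, did not differ beyond the spread of the libraries. It measured 21.9, 25.1 and 22.0 FPKM in the vehicle libraries and 29.0, 19.8 and 19.7 FPKM in the hemin libraries. Hemin replicate 1 was above all vehicle libraries and the other 2 hemin libraries were below them (log2 fold change 0.05 ± 0.18, 95% interval -0.37 to 0.47, edgeR adjusted p = 0.866). The estimate turned to -0.20 without hemin replicate 1 (edgeR adjusted p = 0.135) and to -0.05 with library totals alone, so no direction is given for it. Its 2 transcripts were not alike in the hemin libraries. The coding transcript had 951, 593 and 483 expected counts with hemin against 697, 808 and 688 with vehicle. The non-coding transcript had 126, 128 and 232 expected counts with hemin against 103, 118 and 129 with vehicle. The transcripts were not tested separately.

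Hspa14, the Hsp70 partner of a ribosome-associated complex that meets nascent chains, did not pass the test either. It measured 41.5, 40.8 and 36.1 FPKM in the vehicle libraries and 40.8, 43.7 and 53.9 FPKM in the hemin libraries. The groups overlapped, because hemin replicate 1 lay within the vehicle range (log2 fold change 0.25 ± 0.12, 95% interval -0.02 to 0.51, edgeR adjusted p = 0.143). Like Hspa2, Hspa14 was highest in hemin replicate 3. Of its 50-base windows, 15.6% also occur in transcripts of 1 other protein-coding gene, Gm45902.

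All 3 Hsp110 genes, the exchange factors that share the Hsp70 fold and also hold unfolded proteins, were called higher, with Hsph1 by the widest margin. Hsph1 (Hsp105), the stress-inducible Hsp110, stood at 31.7, 30.7 and 29.5 FPKM with vehicle. With hemin it stood at 378, 259.8 and 139 FPKM. The vehicle libraries were close to one another, whereas the hemin libraries were spread over a 2.71-fold range with replicate 3 at the bottom. Hsph1 rose 8.84-fold (95% interval 4.97 to 15.7), from 30.7 ± 1.101 to 259 ± 119 FPKM (log2 fold change 3.14 ± 0.36, edgeR adjusted p = 0.00114). By log2 fold change it was in place 153 among all genes tested.

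Hspa4 (Apg-2), the main constitutive Hsp110 by level in the vehicle libraries, changed much less. It measured 86.4, 89.3 and 87.5 FPKM in the vehicle libraries and 125, 123 and 106 FPKM in the hemin libraries, again with replicate 3 lowest and no overlap. Hspa4 rose 1.40-fold (95% interval 1.18 to 1.65; log2 fold change 0.48 ± 0.10, edgeR adjusted p = 0.0109). After quantile normalization its log2 fold change was 0.27 and the call was lost (limma adjusted p = 0.0794).

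Hspa4l (Apg-1), the scarcest Hsp110, measured 15.8, 12.2 and 13.6 FPKM in the vehicle libraries and 21.3, 18.8 and 16.5 FPKM in the hemin libraries. The lowest hemin library lay just above the highest vehicle library. Hspa4l rose 1.41-fold (95% interval 1.10 to 1.81; log2 fold change 0.50 ± 0.15, edgeR adjusted p = 0.0424), the least certain of the 8 calls. It lost this call on leaving out vehicle replicate 2 (edgeR adjusted p = 0.123), vehicle replicate 3 (0.0856), hemin replicate 1 (0.0808) or hemin replicate 2 (0.0968), with library totals alone (0.0656) and with no filter on low counts (0.0623).

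**Figure D2:**
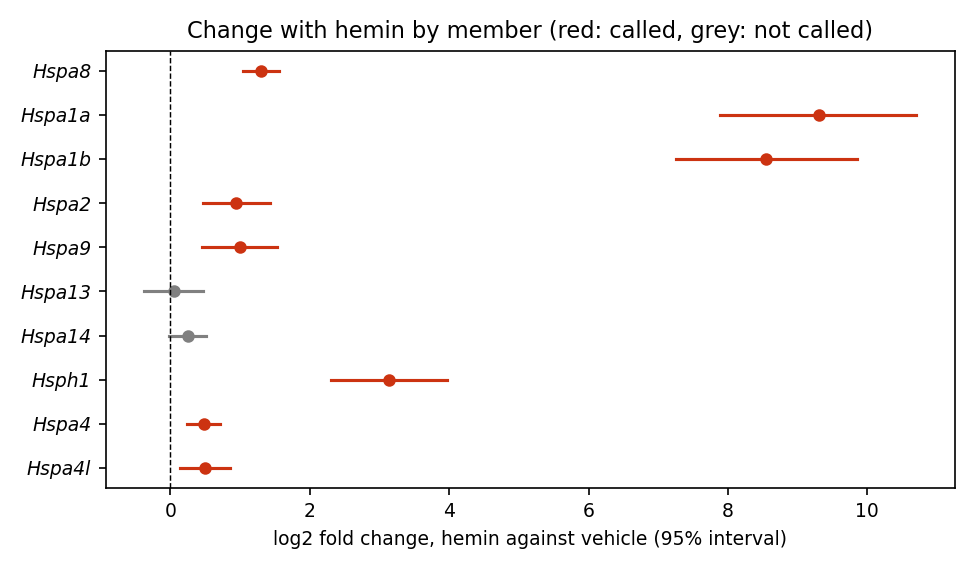
Log2 fold change of hemin against vehicle for each member (points) with its 95% interval from edgeR (lines), red where called and grey where not. Hspa1a and Hspa1b stand at 9.30 and 8.55, Hsph1 at 3.14, and the other members between 0.05 (Hspa13) and 1.30 (Hspa8).

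The plot of log2 fold changes sets the members side by side. The intervals of Hspa1a, Hspa1b and Hsph1 overlap with that of none of the other 7 members. Those 3 hold the element with up to 1 mismatch. Of the other 7, Hspa2, Hspa4, Hspa4l and Hspa14 had no such match, and Hspa8, Hspa9 and Hspa13 had no window to search. Of the Hsp70 relatives outside the list, Hspa5 rose 2.48-fold and Hspa1l 2.04-fold, with 0 such matches in their windows. Among targets outside the family, Bag3 rose 4.02-fold and Dnajb1 3.57-fold with 0 matches in their windows. Hspd1 and Hspe1, with 2 overlapping exact matches in a window of each, rose 2.17-fold and 2.09-fold. Those windows overlap on opposite strands of chromosome 1, and their matches are the same 18 bases. They amount to 1 sequence rather than independent cases. Hspb1, with 1 match with up to 1 mismatch, rose 30.1-fold. Whether the element goes with the size of a change was not tested.

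The make-up of the family changed with its level. The summed level of the 10 members was 1652 ± 85.3 FPKM with vehicle (1554 to 1713) and 4451 ± 729.8 FPKM with hemin (3610 to 4908). As a share of all expected counts, the members took 0.515% to 0.569% with vehicle and 1.14% to 1.65% with hemin. In the vehicle libraries the order of levels was Hspa8, Hspa9, Hspa4, Hspa14, Hsph1, Hspa13, Hspa4l, Hspa2, Hspa1b and Hspa1a, and neighbours overlapped only at its end, Hspa1b with Hspa1a. In the hemin libraries it was Hspa8, Hspa1a, Hspa9, Hspa1b, Hsph1, Hspa4, Hspa14, Hspa13, Hspa4l and Hspa2. There, each of Hspa1a, Hspa9, Hspa1b and Hsph1 overlapped with the next within that run, and Hspa13 overlapped with Hspa4l, so their places are not resolved.

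**Figure D3:**
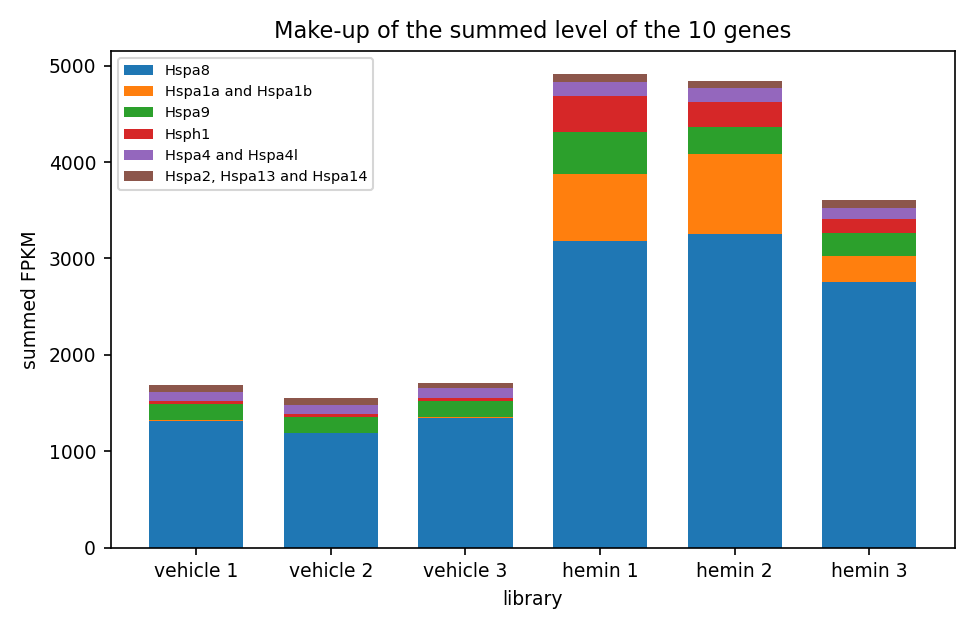
Summed FPKM of the 10 members in each library, stacked by gene or gene group, on an axis from 0. The 3 hemin libraries reach 3610 to 4908 FPKM against 1554 to 1713 FPKM with vehicle, Hspa8 is the largest part of each bar, and the part of Hspa1a and Hspa1b is visible in the hemin libraries.

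Most of the difference in summed FPKM lay in the constitutive gene, Hspa8. FPKM is relative to each library, so this is not a measure of transcript added per cell. Of the 50-base windows of Hspa8, 74.8% occur in other genes. Its log2 fold change was 0.75 after quantile normalization, against 1.30 in the main fit. Of the difference of 2800 FPKM between the group means, Hspa8 made up 63.3%, Hspa1a and Hspa1b together 21.6%, Hsph1 8.15% and Hspa9 5.36%. The share of Hspa8 in the summed level was nevertheless 76.8% to 78.9% with vehicle and 64.7% to 76.2% with hemin, without overlap. The share of Hspa1a and Hspa1b was 0.0598% to 0.0981% with vehicle and 7.71% to 17.3% with hemin. Within the Hsp110 genes the leading gene changed. Hspa4 made up 64.5% to 67.5% of their summed level with vehicle and 23.8% to 40.6% with hemin, while Hsph1 made up 22.6% to 23.7% with vehicle and 53.1% to 72.1% with hemin. The ratio of summed Hsp110 to summed cytosolic Hsp70 (Hspa1a, Hspa1b, Hspa2 and Hspa8, without the ribosome-associated Hspa14) was 0.0964 to 0.111 with vehicle and 0.0863 to 0.135 with hemin. These ranges overlapped. Shares of a sum move together by construction, and none of them was tested.

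The hemin libraries were not alike for the family. Hemin replicate 3 was the lowest of the 3 for 7 of the 8 members called higher, and for 35.6% of all 2070 genes called higher. The exception was Hspa2, which was highest there. Without hemin replicate 3, the log2 fold changes were 9.65 ± 0.26 for Hspa1a, 8.91 ± 0.14 for Hspa1b, 3.45 for Hsph1, 1.39 for Hspa8 and 1.18 for Hspa9, and the same number of members, 8, was called higher. Without vehicle replicate 1 the number was 8 as well, and without any other single library it was 7 because Hspa4l was lost.

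Depth and cell type markers are given here beside the values of the members. Expected counts summed to between 6339966 and 6390691 in the vehicle libraries and between 6463460 and 6523639 in the hemin libraries. All 6 OPC markers of the list (Pdgfra, Cspg4, Sox10, Olig1, Olig2 and Gpr17) were called lower, and their summed level was 1003 to 1211 FPKM with vehicle and 262 to 404 FPKM with hemin. Oligodendrocyte markers summed to 31.0 to 52.0 FPKM with vehicle and 24.7 to 36.4 FPKM with hemin (1 of 3 tested lower), and Mog was listed in no library. Astrocyte markers summed to 106 to 136 FPKM with vehicle and 73.1 to 114 FPKM with hemin (3 of 5 tested lower), and neuronal markers to 78.9 to 109 FPKM and 62.8 to 77.0 FPKM (1 of 6 higher, 2 lower). Microglial markers summed to 2.60 to 3.36 FPKM and 5.25 to 6.11 FPKM (1 of 3 tested higher), and endothelial and pericyte markers to 3.09 to 5.84 FPKM and 6.15 to 10.3 FPKM (2 of 4 tested higher). Their part in the results on the members was not tested. In bulk RNA, fewer cells of a type and less RNA per cell cannot be told apart.

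Partner lists are read against all genes tested, with 16.2% called higher, 15.7% lower and a median log2 fold change of 0.00. The other genes of the Hsp70 superfamily on the list gave 2 higher and 0 lower among 4 tested. Hspa5 (BiP), the Hsp70 of the endoplasmic reticulum, measured 160.3, 157 and 162 FPKM in the vehicle libraries and 505, 352 and 282 FPKM in the hemin libraries (log2 fold change 1.31 ± 0.22, edgeR adjusted p = 0.00444). That change is near those of Hspa8 and Hspa9. Hspa1l, a testis-enriched Hsp70 that lies head to head with Hspa1a, measured 2.00, 1.88 and 1.87 FPKM in the vehicle libraries and 4.00, 4.66 and 2.71 FPKM in the hemin libraries (log2 fold change 1.03 ± 0.26, edgeR adjusted p = 0.0211). The Hspa1l call did not survive leaving out vehicle replicate 1 (edgeR adjusted p = 0.0605), vehicle replicate 2 (0.0656), vehicle replicate 3 (0.0557) or hemin replicate 2 (0.0742). Of the 50-base windows of Hspa1l, 71.4% occur in transcripts of other genes, and Gm10501 alone shares 71.4%. Hyou1, the exchange factor of the endoplasmic reticulum, had a log2 fold change of 0.27 ± 0.09 (edgeR adjusted p = 0.0577; 0.0486 without hemin replicate 1). Hspa12a, a distant relative, had one of -0.15 ± 0.19 (edgeR adjusted p = 0.601), and Hspa12b was too low to test.

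Among the J-domain partners that drive the Hsp70 cycle, 8 of 18 tested were higher and 0 lower, with a median log2 fold change of 0.30. Without vehicle replicate 1 the number was 6. Dnajb1 (Hsp40), the stress-inducible partner of cytosolic Hsp70, measured 14.2, 15.7 and 15.8 FPKM in the vehicle libraries and 60.0, 57.0 and 40.0 FPKM in the hemin libraries (log2 fold change 1.84 ± 0.18, edgeR adjusted p = 0.000715). Like Hspa1a and Hsph1, it was lowest in hemin replicate 3. Dnaja1, a farnesylated partner, rose by 0.95 ± 0.15 (edgeR adjusted p = 0.00339). Dnajc2, which forms the ribosome-associated complex with Hspa14, rose by 0.71 ± 0.10 (edgeR adjusted p = 0.00241), whereas Hspa14 itself did not pass. The mitochondrial partners of Hspa9 did not pass, with log2 fold changes of 0.02 ± 0.16 for Dnajc19 of the import motor (edgeR adjusted p = 0.933) and 0.75 ± 0.27 for Hscb of iron-sulfur cluster assembly (edgeR adjusted p = 0.0665). In limma on log2(FPKM + 1), Hscb was called (0.64, adjusted p = 0.0392), and for Dnajc19 the direction differed between settings.

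Among 10 exchange factors other than Hsp110, 3 were higher and 1 lower, with a median of 0.36. The number higher was 1 without vehicle replicate 2, hemin replicate 2 or hemin replicate 3, with totals alone and with no filter. Bag3, which couples Hsp70 to selective autophagy, measured 8.33, 7.67 and 12.1 FPKM in the vehicle libraries and 34.7, 34.8 and 39.8 FPKM in the hemin libraries (log2 fold change 2.01 ± 0.18, edgeR adjusted p = 0.000556). Bag1, a proteasome-linked factor, had a log2 fold change of 0.35 ± 0.15 (edgeR adjusted p = 0.111) and was called without hemin replicate 1 (0.48, edgeR adjusted p = 0.0164) and in the fit blocked by replicate number (0.34, edgeR adjusted p = 0.0467). The cytosolic factor Hspbp1 had one of 0.59 ± 0.35 (edgeR adjusted p = 0.237) and was called without vehicle replicate 1 (1.16, edgeR adjusted p = 0.0139). Of the mitochondrial exchange factors for Hspa9, Grpel1 had 0.43 ± 0.12 (edgeR adjusted p = 0.0287) and Grpel2 had -0.14 ± 0.15 (edgeR adjusted p = 0.501). The Grpel1 call did not pass on leaving out vehicle replicate 1 (edgeR adjusted p = 0.103), vehicle replicate 2 (0.0853), hemin replicate 2 (0.0902) or hemin replicate 3 (0.0535), with totals alone (0.0623) and with no filter (0.0567). The gene that fell was Bag4, a relative of Bag1 that also binds death receptors, named after its values were seen, by 0.86 on the log2 scale (edgeR adjusted p = 0.00382).

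Of 7 further partners that bind Hsp70 at its C-terminus or ATPase domain, 3 were higher and 1 lower, with a median of 0.08. Stip1 (Hop), which hands clients from Hsp70 to Hsp90, rose by 0.74 ± 0.12 (edgeR adjusted p = 0.00442). St13 (Hip), which slows the release of ADP, rose by 0.42 ± 0.09 (edgeR adjusted p = 0.0133), a call lost without vehicle replicate 1 (0.0599) or hemin replicate 2 (0.0517) and after quantile normalization (limma adjusted p = 0.136). Stub1 (CHIP), the ubiquitin ligase that sends Hsp70 clients to degradation, had a log2 fold change of 0.02 ± 0.12 (edgeR adjusted p = 0.922), with a direction that differed between settings. The lower gene was Dnlz, a zinc finger protein that keeps Hspa9 soluble, also named after its values were seen, with a log2 fold change of -0.74 ± 0.17 (edgeR adjusted p = 0.0141). On leaving out vehicle replicate 3 the call was lost (edgeR adjusted p = 0.0536), as it was on leaving out hemin replicate 2 (0.0524).

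**Figure D4:**
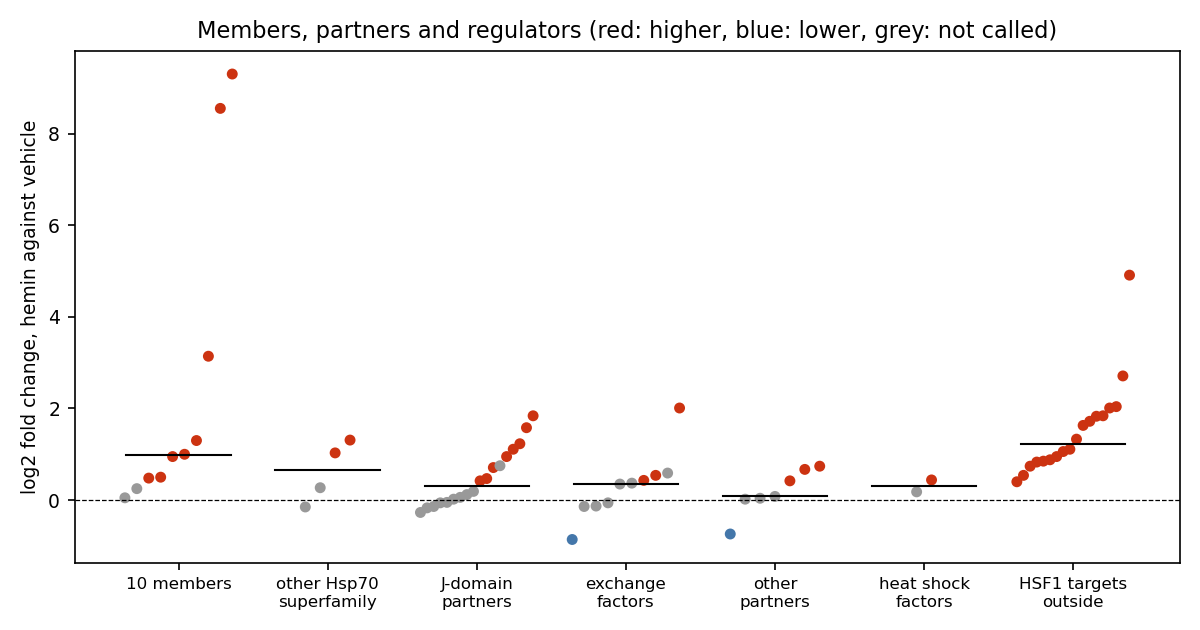
Log2 fold change of each tested gene by list, coloured by its edgeR call, with the median of the list as a bar and a dashed line at 0. The median is 0.97 for the 10 members, 0.30 for the J-domain partners and 1.22 for the HSF1 targets outside the family, and 1 exchange factor and 1 other partner are lower.

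The plot of lists also shows the heat shock factors and the HSF1 targets outside the family. Hsf1 measured 4.62, 2.95 and 3.64 FPKM in the vehicle libraries and 4.65, 4.86 and 2.66 FPKM in the hemin libraries, and the groups overlapped (log2 fold change 0.18 ± 0.30, edgeR adjusted p = 0.688). Hsf2 had a log2 fold change of 0.44 ± 0.12 (edgeR adjusted p = 0.0295), a call that stood in 4 of 15 alternatives and was lost on leaving out any 1 library other than hemin replicate 1 (edgeR adjusted p from 0.064 to 0.0822). Of the 18 targets, 18 were called higher, with a median of 1.22. The number was 14 without vehicle replicate 1 or 2, and 4 of the 18 also stand on the partner lists. The list of targets was chosen with earlier results of these data known, so the count is a description only. The small heat shock protein Hspb1 went from 1.27, 0.56 and 1.53 FPKM to 36.5, 47.2 and 14.8 FPKM (log2 fold change 4.91 ± 0.56, edgeR adjusted p = 0.00114), in the same order of hemin libraries as Hspa1a and Hspa1b. Hsp90aa1 and Hsp90ab1, the cytosolic Hsp90 genes that receive clients from Hsp70, rose by 1.83 ± 0.19 and 0.88 ± 0.11 (edgeR adjusted p = 0.000901 and 0.00139). Hspd1, the mitochondrial chaperonin downstream of Hspa9, rose by 1.11 ± 0.30 (edgeR adjusted p = 0.0258), a call lost on leaving out any vehicle library (0.0633 to 0.0736) or hemin replicate 2 (0.0627) and after quantile normalization (limma adjusted p = 0.109). Hemin replicate 3 was the lowest hemin library for 13 of the 18 targets.

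The genes whose pattern over the 6 libraries lay nearest to that of a member were found by the root mean square difference of log2(FPKM + 1) after subtracting the vehicle mean. For the sum of Hspa1a and Hspa1b they were Hmox1, the heme-degrading oxygenase (0.88), Atf3, a stress-induced transcription factor (2.07), and Osgin1, a growth inhibitor induced by oxidative stress (2.45). Even the nearest of these differed from the pair in the order of the hemin libraries, with Hmox1 at 3045, 2298 and 2456 FPKM. For Hspa8 the nearest were Lrp2 (0.08), Nmd3 (0.09) and Aldh8a1 (0.09), and for Hsph1 they were Plaur (0.20), Aldh1a3 (0.24) and Nefm (0.27). Plaur, Aldh1a3 and Nefm shared with Hsph1 a hemin replicate 1 above replicate 2 and a replicate 3 at the bottom. The pseudocount of 1 flattens changes of scarce genes, so this nearness is one of the transformed values. From vehicle means of 0.58 and 0.05 FPKM, Lrp2 and Aldh8a1 had edgeR log2 fold changes of 2.36 and 4.56. Nmd3 had 1.30, as did Hspa8. Plaur, Aldh1a3 and Nefm had 4.71, 4.27 and 3.63, against 3.14 for Hsph1. The nearness is a description over 6 libraries that share 1 contrast.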

How the data were processed

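RNA-seq of 3 vehicle and 3 hemin samples was used, grouped by their titles. Per the submitters' processing notes, Bowtie 0.12.2 and RSEM were used, with the builds mm8 and mm9 given without a role or an order, so no gene coordinates are taken from the files. The sources used here do not give the annotation release, read filters or strand setting. Per the file headers, the deposited tables hold expected counts per transcript, estimates by the authors that are not scaled for depth, together with FPKM, scaled by the authors for length and library size. Separate tables of unannotated features were not used here. Per the labels' protocols, mRNA was enriched and amplified by PCR.

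Transcripts were summed to 18753 genes by gene identifier, with genes missing from a table at 0. Symbols came from the RefSeq gene table of GRCm38.p6 and were found for 18706 genes. Expected counts were rounded. In R 4.3.3, edgeR 4.0.16 filtered genes (filterByExpr by group), computed TMM factors and ran the two-sided quasi-likelihood test (glmQLFit, glmQLFTest) with group as the only term. The p-values of the 12783 remaining genes were adjusted after Benjamini and Hochberg, with a threshold of 0.05 and a biological coefficient of variation of 0.208. The filter can be passed through 1 group alone. The fit was also run on simulated data, with fewer changed genes and no change as large as those of Hspa1a, Hspa1b and Hsph1. That run therefore does not show how the fit performs on changes of this number and size. Standard errors were derived as the absolute log2 fold change over the square root of the F statistic of the test. The 95% intervals were built from them, symmetric on the log2 scale, with the t distribution at the degrees of freedom of the fit.

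Alternatives were RLE size factors, library totals alone, DESeq2 1.42.0, limma 3.58.1 with a trend on log2(FPKM + 1), pseudocounts of 0.1 and 0.5, quantile normalization, no filter, each library left out, the replicate number as a block, and Hspa1a and Hspa1b summed. Named genes are the 10 members, 24 partners and regulators picked from the lists with no rule on their change, and 3 nearest genes for each of 3 patterns, passing over provisional names. Bag4 and Dnlz, named after their values were seen, and Hspe1, given with its promoter window, stand outside that choice. The members and lists were chosen with earlier results of these data known. Promoters came from RefSeq (GRCm38.p6) and shared windows from GENCODE vM21 transcripts.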

Additional observations from a re-analysis of the deposited data

How the results depend on the processing

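Over the 10 members and their alternatives, 140 values kept direction and side of the threshold, 7 lost the call and 5 changed sign. The losses were Hspa4 after quantile normalization (log2 fold change 0.27) and Hspa4l with totals alone (0.40), with no filter (0.45) and in 4 of the 6 fits that left out a library, over which it ranged from 0.37 to 0.61. Hspa13, not called in any fit, was -0.05 with totals alone, -0.03 in limma at each pseudocount and between -0.20 and 0.16 with a library left out. Dnajc19 was -0.06 and Stub1 -0.07 with totals alone, -0.10 and -0.04 in limma, -0.09 and -0.07 after quantile normalization, -0.02 and -0.02 with no filter, and between -0.10 and 0.13 and between -0.09 and 0.09 with a library left out. Hspa1a and Hspa1b, called in every fit, were lowest after quantile normalization (7.49 and 6.99). The count of genes called, 4076, ranged from 2552 (without vehicle replicate 2) to 4527 with a library left out and was 2591 without vehicle replicate 1. With totals alone 39.9% of calls were higher, against 50.8%, and the median of all genes moved by -0.09. The deviations of same-numbered libraries correlated at 0.0644, 0.1 and 0.158. Each library correlated best with its own number, which is a hint from the data and not a pairing in the design. With the replicate number as a block 3730 genes were called and no member's call changed. The depth of 6339966 to 6523639 expected counts a library leaves Hspa1a and Hspa1b with 8.42 to 21.0 counts each with vehicle.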
